A study of Mus musculus with 12 samples.

Results

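The genes described here are 10 genes of iron handling and the metallothioneins, chosen by name: *Hamp*, *Hamp2*, *Bmp6*, *Tfrc*, *Trf*, *Slc40a1*, *Fth1*, *Ftl1*, *Mt1* and *Mt2*. Each had exactly 1 row among the 54532 genes of the deposited table, and all 10 passed the filter for testing, a mean of at least 1 FPKM (fragments per kilobase of gene length, adjusted for the size of the library). Liver RNA came from 12 male C57BL/6J mice, 3 in each of 4 groups, that started their diets when they were 5 weeks old and stayed on them for 26 weeks. The groups were ND, kept on normal diet; control, kept on the high-fat diet with no addition; HYA, with 1% HYA mixed into the high-fat diet; and LA, with 1% linoleic acid (LA) mixed into it. HYA is the hydroxylated derivative of LA that lactobacilli of the gut produce, so the HYA and LA groups compare a metabolite with its parent fatty acid at a matched dose and time.

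Iron leaves hepatocytes, macrophages and enterocytes through ferroportin, and the liver hormone hepcidin lowers plasma iron by binding ferroportin and causing its degradation. Hepcidin transcription is driven by BMP ligands that act through SMAD proteins and by inflammatory cytokines that act through STAT3. Inside cells, iron regulatory proteins bind a hairpin in certain messenger RNAs, the iron-responsive element (IRE), and through it repress translation when the hairpin is in the 5′ UTR or stabilise the message when it is in the 3′ UTR. Metallothioneins are small cysteine-rich proteins that bind zinc and copper, and their genes are classic targets of the zinc sensor MTF1, of glucocorticoids and of acute-phase signals.

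The livers yielded between 17169064 and 25220880 fragments on genes, with a median of 19610557. For a 2 kb gene, 3 fragments would give 0.0607 to 0.0944 FPKM, depending on the mouse, and all 10 genes lay above this floor in every mouse. *Bmp6* rested on the fewest fragments among the iron genes (86 to 194 per mouse), *Mt1* on 46 to 467 and *Mt2* on 20 to 203. The hepatocyte markers were present in every group, and none of the markers of hepatocytes, macrophages, sinusoidal endothelium, erythroid cells or stellate cells was at 0 in all mice of a group. In whole liver, fewer cells of a type and less RNA per cell cannot be told apart.

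The sequences of 4 of the 10 messages held the IRE letters, and they are shown because the hairpin divides these genes into those regulated through the 5′ UTR and through the 3′ UTR. The search took a C, then 5 bases, CAGTG followed by A, C or T, and 5 further bases that pair with the first 5, with at least 3 pairs in the lower stem, in GENCODE M21 transcripts on the sense strand (build GRCm38). Capitals mark the 6-base loop, and each run is 27 bases.
*Fth1*: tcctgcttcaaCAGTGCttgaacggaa
*Ftl1*: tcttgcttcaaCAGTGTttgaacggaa
*Slc40a1*: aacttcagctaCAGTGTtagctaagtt
*Tfrc*, match nearest the coding sequence: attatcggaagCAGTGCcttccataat
*Tfrc*, the second match: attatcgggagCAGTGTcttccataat
*Tfrc*, the third match: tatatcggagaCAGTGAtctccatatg
*Tfrc*, last match: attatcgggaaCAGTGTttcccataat
The *Fth1* match lies in the 5′ UTR at chr19:9982733-9982759 on the plus strand. The *Ftl1* match lies in exon 1 in the 5′ UTR at chr7:45459780-45459806 on the minus strand, and that of *Slc40a1* in exon 1 in the 5′ UTR at chr1:45925466-45925492 on the minus strand. The 4 *Tfrc* matches lie in exon 19, in the 3′ UTR, within chr16:32631220-32631737 on the plus strand. The pattern was found in 68 of 21901 protein-coding genes (0.310%), and a match is a description of letters, not a measured binding site.

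For *Hamp* and *Hamp2*, the 250 bases before the RefSeq start (GRCm38.p6) are shown because the copies lie side by side on chromosome 7 yet had different levels across the diets. Capitals mark the BMP element GGCGCC, or the bases aligned with it, and the STAT element TTCNNNGAA, both searched on both strands. Positions of the windows are chr7:30944030-30944279 for *Hamp* and chr7:30924182-30924431 for *Hamp2*, both on the minus strand.
*Hamp*: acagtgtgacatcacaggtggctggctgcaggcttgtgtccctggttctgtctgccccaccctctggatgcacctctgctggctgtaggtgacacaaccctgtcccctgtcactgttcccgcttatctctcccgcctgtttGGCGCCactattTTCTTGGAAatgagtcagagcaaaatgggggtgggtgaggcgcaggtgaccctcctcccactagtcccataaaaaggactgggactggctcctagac
*Hamp2*: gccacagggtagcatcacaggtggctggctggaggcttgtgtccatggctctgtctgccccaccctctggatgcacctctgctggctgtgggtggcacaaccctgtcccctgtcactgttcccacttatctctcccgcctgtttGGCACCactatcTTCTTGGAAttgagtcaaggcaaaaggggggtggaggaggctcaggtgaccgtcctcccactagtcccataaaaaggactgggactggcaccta
Aligned at an offset of 3 bases, the windows were identical at 227 of 247 bases (91.9%). *Hamp* held GGCGCC 109 to 104 bases before the start, and *Hamp2* held the substitution G4A there, counted from 1 at the 5′ end of the element. Both held TTCTTGGAA, at 97 to 89 bases before the start in *Hamp* and at 94 to 86 in *Hamp2*. GGCGCC occurred in 9.59% and TTCNNNGAA in 7.02% of the 32851 upstream windows of this length.

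*Hamp* (ENSMUSG00000050440, chr7:30942368-30944032, minus strand) encodes hepcidin, and at a mean of 534 FPKM it ranked 82 among all genes. Its levels were 869, 914 and 664 FPKM in ND-fed mice, 272, 559 and 283 FPKM in control mice, 534, 456 and 965 FPKM in HYA-treated mice and 274, 492 and 127 FPKM in LA-treated mice. All 3 control and all 3 LA-treated mice were below the lowest ND-fed mouse, whereas the HYA-treated mice spanned the range from control to above the highest ND-fed mouse. The mean was 816 ± 133 FPKM in ND-fed and 371 ± 163 FPKM in control mice (SD, n = 3 each), 0.455 times the ND level. On the log2(FPKM + 1) scale used for all tests this was -1.20 ± 0.46 (SE), with a limma Benjamini-Hochberg adjusted p of 0.0626, so the difference did not pass the threshold of 0.05. Over the 20 alternative settings the limma or voom adjusted p ranged from 0.0232 to 0.181. It was under the threshold in 5 of these settings, namely voom on fragments (0.0464), the fit of ND and control mice alone (0.0232) and the fits without control mouse 2 (0.0338), LA mouse 2 (0.0342) or LA mouse 3 (0.0253).

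Against ND-fed mice, *Hamp* fell in LA-treated mice, by 1.64 on the log2 scale (limma adjusted p 0.0194), from 816 ± 133 to 298 ± 184 FPKM. That call was lost without ND mouse 1 (limma adjusted p 0.0525), without ND mouse 2 (0.0611) or without LA mouse 3 (0.0616), the liver with the lowest *Hamp* of all 12, over a range of 0.00588 to 0.0616 in all 20 settings. HYA-treated mice had 652 ± 274 FPKM, with a log2 difference from control of 0.82 (limma adjusted p 0.377) and from LA of 1.25 (95% interval 0.25 to 2.26, limma adjusted p 0.191). Neither difference passed the threshold, and in each the ranges of the groups overlapped. The summed level of 8 hepatocyte markers, the cells that make hepcidin, was 51429 to 54053 FPKM under ND, 39613 to 44408 FPKM in control mice, 49116 to 51758 FPKM under HYA and 42583 to 44275 FPKM under LA. In HYA against ND, limma called 3 of the 8 lower and 1, *Fabp1*, higher. The part of hepatocytes in the *Hamp* values was not tested.

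*Hamp2* (ENSMUSG00000056978, chr7:30922372-30924681, minus strand), the adjacent copy, does not share the iron-regulating role established for hepcidin. It was present at 64.8 FPKM on average, far below *Hamp*. It measured 61.1, 67.9 and 40.1 FPKM in ND-fed mice, 41.0, 105 and 43.6 FPKM in control mice, 68.5, 85.2 and 72.6 FPKM in HYA-treated mice and 43.9, 89.5 and 58.7 FPKM in LA-treated mice. Every group overlapped every other except ND and HYA, and no comparison passed the threshold. The log2 difference of control from ND was 0.06, with a 95% interval of -0.72 to 0.84 and a limma adjusted p of 0.914. Its sign turned to -0.37 without control mouse 2, the liver with the highest *Hamp2*. Control mouse 2 also had the highest *Hamp* of its group, and LA mouse 2 was the highest LA-treated mouse for both genes.

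Within mice, the ratio of *Hamp2* to *Hamp* separated the ND group from the others. It was 0.0683 ± 0.00720 in ND-fed mice, 0.164 ± 0.0206 in control mice, 0.130 ± 0.0558 in HYA-treated mice and 0.268 ± 0.168 in LA-treated mice (SD, n = 3 each, no test). The HYA range of 0.0753 to 0.187 began just above the highest ND-fed mouse (0.0743), and the LA mean was raised by mouse 3 at 0.462. Fragments that match both copies could be counted for either, and the lincRNA Gm44662 on the opposite strand (1.97 FPKM) overlaps both genes.

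**Figure D1:**
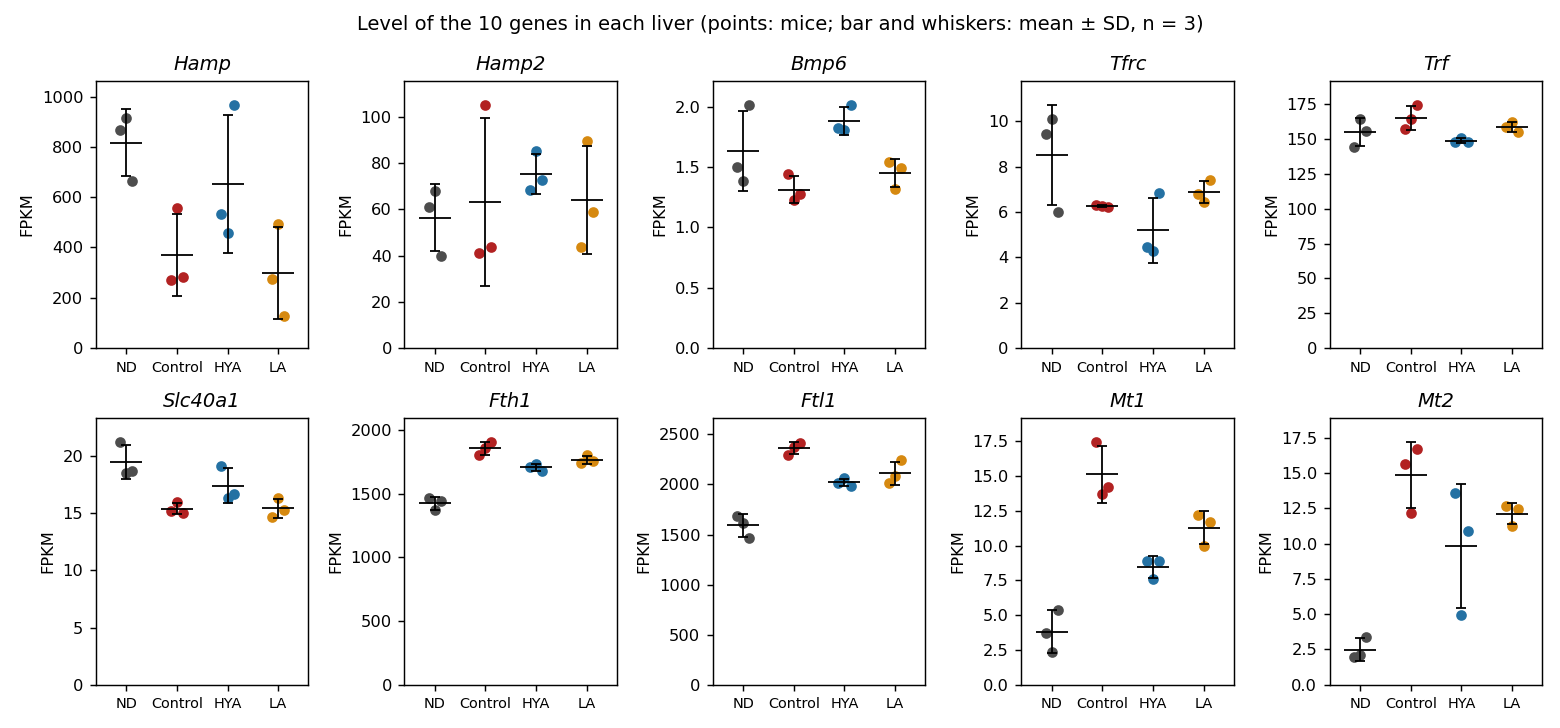
Each panel plots the FPKM of 1 gene (y axis from 0) in the ND, control, HYA and LA groups, with a point per mouse and a bar and whiskers for the mean ± SD of 3 mice. *Fth1* and *Ftl1* points sit close together in each group, with control mice highest (1805 to 1904 and 2297 to 2415 FPKM), whereas *Hamp* points spread from 127 to 492 FPKM within the LA group.

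*Bmp6* (ENSMUSG00000039004, chr13:38345107-38500302, plus strand) encodes the ligand, made mainly by sinusoidal endothelial cells, that drives hepcidin when liver iron is high. Its levels were 1.50, 1.39 and 2.01 FPKM in ND-fed mice, 1.44, 1.22 and 1.27 FPKM in control mice, 1.83, 1.81 and 2.01 FPKM in HYA-treated mice and 1.54, 1.32 and 1.50 FPKM in LA-treated mice. All HYA-treated mice lay above all control and all LA-treated mice. The log2 difference of HYA from control was 0.32 ± 0.09 (SE) with an unadjusted p of 0.00486 and a limma adjusted p of 0.0883, and that of HYA from LA was 0.23 (95% interval 0.04 to 0.43, limma adjusted p 0.213). Neither passed the threshold, and no alternative brought the HYA and control difference under it (limma or voom adjusted p 0.0513 to 0.211). The summed level of the 10 sinusoidal endothelial markers was 127 to 137 FPKM in HYA-treated, 127 to 134 FPKM in LA-treated, 134 to 135 FPKM in control and 93.1 to 117 FPKM in ND-fed mice. Its part in the *Bmp6* values was not tested, and the end of *Bmp6* overlaps *Txndc5* (47.2 FPKM) on the opposite strand.

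*Slc40a1* (ENSMUSG00000025993, chr1:45908068-45926523, minus strand) encodes ferroportin, the exporter that hepcidin removes. The livers held 21.2, 18.5 and 18.7 FPKM under ND, 15.2, 15.9 and 15.0 FPKM in control mice, 19.2, 16.4 and 16.7 FPKM under HYA and 14.7, 16.4 and 15.2 FPKM under LA. *Slc40a1* was lower in control than in ND-fed mice, at 15.4 ± 0.489 against 19.5 ± 1.51 FPKM, with a log2 difference of -0.32 ± 0.07 (SE, limma adjusted p 0.00677). It was lower by about the same amount in LA-treated mice (-0.32, limma adjusted p 0.00807). All HYA-treated mice exceeded the highest control mouse, but the difference of 0.17 did not pass (limma adjusted p 0.259). With values rescaled to TPM, which gives every mouse the same total, the control and ND difference was -0.10 with a limma adjusted p of 0.401, and the call was lost (0.00415 to 0.401 over the 20 settings). The call in LA-treated mice was lost with TPM as well (-0.10, limma adjusted p 0.398, range 0.00513 to 0.398). TPM moved the median of all tested genes in this comparison from -0.04 to 0.18, and relative to that median *Slc40a1* was at -0.28 on both scales. The summed level of the 12 macrophage markers was 254 to 391 FPKM under ND, 392 to 404 FPKM in control mice, 280 to 391 FPKM under HYA and 379 to 400 FPKM under LA. The macrophage sums of control mice lay above those under ND and HYA but overlapped those under LA. Of the 12 markers, 6 were higher and 2 (*Marco* and *Timd4*) lower in control against ND by limma. *Mt1*, *Fth1* and *Ftl1* were highest in control mice, without overlap with LA. The part of macrophages in the values of these genes and of *Slc40a1* was not tested.

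Uptake of plasma iron runs through transferrin and its receptor. *Tfrc* (ENSMUSG00000022797, chr16:32608920-32632794, plus strand), the receptor, had 9.42, 10.1 and 6.00 FPKM in ND-fed mice, 6.31, 6.24 and 6.21 FPKM in control mice, 4.44, 4.26 and 6.85 FPKM in HYA-treated mice and 6.80, 6.42 and 7.39 FPKM in LA-treated mice. ND mouse 3 stood apart from its group at the level of the control mice, and HYA mouse 3 stood above the other 2 HYA-treated mice, so ranges overlapped. *Tfrc* was lower in HYA-treated than in ND-fed mice, at 5.18 ± 1.45 against 8.50 ± 2.19 FPKM, with a log2 difference of -0.62 ± 0.18 (SE, limma adjusted p 0.0372). The call was lost in 11 of 20 alternative settings, with limma or voom adjusted p from 0.0062 to 0.132 over all of them. Control against ND gave -0.36 (limma adjusted p 0.138), or -0.57 without ND mouse 3 (limma adjusted p 0.0171, range 0.0171 to 0.558 over the 20 settings).

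*Trf* (ENSMUSG00000032554, chr9:103204001-103230444, minus strand) encodes transferrin, the plasma iron carrier secreted by hepatocytes. It varied little, with 144, 165 and 156 FPKM in ND-fed mice, 157, 165 and 174 FPKM in control mice, 148, 151 and 148 FPKM in HYA-treated mice and 159, 162 and 155 FPKM in LA-treated mice. No comparison passed the threshold. All HYA-treated mice were below all control and all LA-treated mice, with a log2 difference from control of -0.15 (95% interval -0.28 to -0.02, limma adjusted p 0.202). With TPM the difference from control was -0.28 and did pass (limma adjusted p 0.0233, range 0.0233 to 0.414 over the 20 settings), and so did control against ND at 0.33 (limma adjusted p 0.000467, range 0.000467 to 0.608) and LA against ND at 0.27 (limma adjusted p 0.00201). However, relative to the median gene control against ND was 0.14 with FPKM and 0.15 with TPM, and LA against ND was 0.08 and 0.09.

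The ferritin subunits were the most abundant of the 10 genes, and mice of the same group differed little in them. *Fth1* (ENSMUSG00000024661, chr19:9982703-9985092, plus strand) encodes the heavy chain, which oxidises iron for storage, and ranked 29 at 1689 FPKM. *Ftl1* (ENSMUSG00000050708, chr7:45457944-45459884, minus strand) encodes the light chain, which favours the mineral core, and ranked 24 at 2021 FPKM. *Fth1* measured 1465, 1369 and 1443 FPKM in ND-fed mice, 1805, 1860 and 1904 FPKM in control mice, 1709, 1733 and 1681 FPKM in HYA-treated mice and 1742, 1801 and 1757 FPKM in LA-treated mice. Each group on the high-fat diet lay above ND without overlap, and HYA lay below LA and control without overlap. *Ftl1* measured 1688, 1615 and 1467 FPKM in ND-fed mice, 2297, 2376 and 2415 FPKM in control mice, 2018, 2059 and 1987 FPKM in HYA-treated mice and 2012, 2081 and 2240 FPKM in LA-treated mice. HYA and LA overlapped here, and both lay between ND and control.

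Control mice exceeded ND-fed mice 1.30-fold in *Fth1* (log2 difference 0.38 ± 0.05 SE, limma adjusted p 0.000272) and 1.49-fold in *Ftl1* (0.57 ± 0.07 SE, limma adjusted p 0.000106). Both subunits were also higher than ND in HYA-treated mice (0.26 and 0.35, limma adjusted p 0.00612 and 0.00517, but 0.104 and 0.0754 with no filter on low values) and in LA-treated mice (0.31 and 0.41, limma adjusted p 0.00117 and 0.00102). In HYA-treated against control mice the differences were -0.12 for *Fth1* (limma adjusted p 0.239) and -0.22 for *Ftl1* (limma adjusted p 0.0982), which did not pass. With TPM they were -0.25 and -0.35, and both passed (limma adjusted p 0.0330 and 0.0331), while the median of all genes moved from 0.02 to -0.10. Over the 20 settings the limma or voom adjusted p reached 0.608 for *Fth1* and 0.378 for *Ftl1*. Together the subunits took 0.295% to 0.336% of all fragments under ND, 0.496% to 0.516% in control mice, 0.404% to 0.422% under HYA and 0.441% to 0.481% under LA.

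The ratio of *Fth1* to *Ftl1* was nearly constant within the control group, at 0.786 ± 0.00277, and within the HYA group, at 0.845 ± 0.00290 (SD, n = 3 each, no test). It was 0.900 ± 0.0735 in ND-fed and 0.839 ± 0.0468 in LA-treated mice, where ND mouse 3 (0.984) and LA mouse 3 (0.785) stood apart. Of 14 related ferritin rows in the table, 3 were above 0 in any mouse. *Ftl1-ps1* was the highest at 11.8 to 23.1 FPKM, *Ftl2-ps* had 0.168 to 0.488 FPKM and *Fth-ps2* at most 0.300 FPKM. Reads that match a ferritin gene and its copies can be split between them, and *Ftl1* also overlaps Gm10252 (12.4 FPKM) on the opposite strand.

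**Figure D2:**
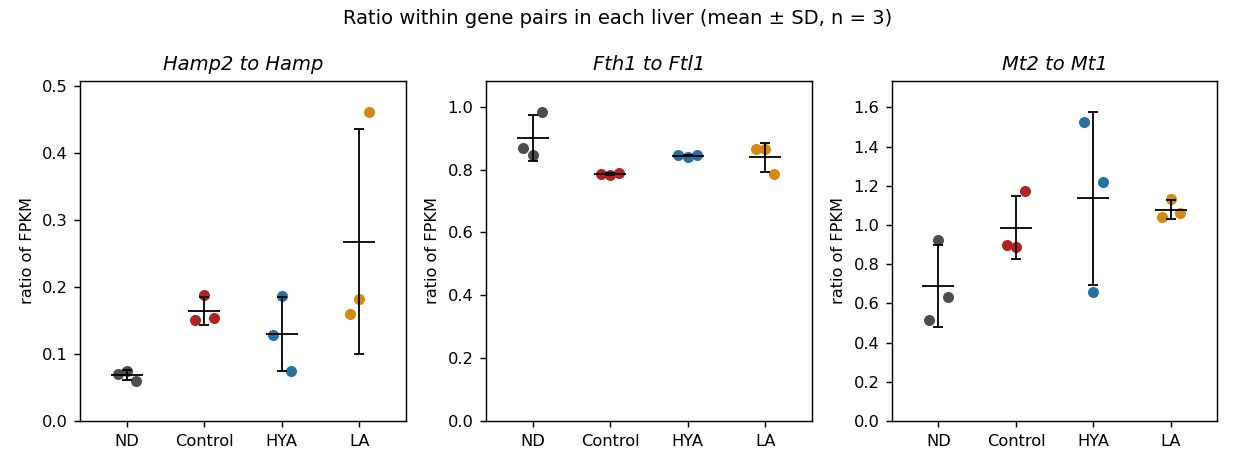
The 3 panels plot ratios of FPKM within a mouse (y axis from 0, no unit) for *Hamp2* to *Hamp*, *Fth1* to *Ftl1* and *Mt2* to *Mt1*, by group, with a point per mouse and the mean ± SD of 3 mice. The *Hamp2* to *Hamp* ratio is 0.0603 to 0.0743 in ND-fed mice and reaches 0.462 in LA mouse 3, and the *Fth1* to *Ftl1* ratio of control mice spans only 0.783 to 0.788.

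Of the 10 genes, *Mt1* and *Mt2* had the largest log2 differences in control against ND and in HYA against ND. *Mt1* (ENSMUSG00000031765, chr8:94179082-94180327, plus strand) and *Mt2* (ENSMUSG00000031762, chr8:94172664-94173568, plus strand) lie side by side. *Mt1* was 3.75, 2.32 and 5.40 FPKM in ND-fed mice, 17.4, 13.7 and 14.2 FPKM in control mice, 8.90, 7.57 and 8.90 FPKM in HYA-treated mice and 12.2, 9.94 and 11.7 FPKM in LA-treated mice. The 4 groups did not overlap, in the order ND, HYA, LA, control. *Mt2* was 1.94, 2.14 and 3.41 FPKM in ND-fed mice, 15.7, 12.2 and 16.7 FPKM in control mice, 13.6, 4.97 and 10.9 FPKM in HYA-treated mice and 12.7, 11.2 and 12.4 FPKM in LA-treated mice. Only ND stood apart for *Mt2*, since the HYA-treated mice spread 2.73-fold and overlapped both other groups.

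Control mice exceeded ND-fed mice 3.95-fold in *Mt1*, at 15.1 ± 2.03 against 3.82 ± 1.54 FPKM (log2 difference 1.78 ± 0.19 SE, limma adjusted p 7.35e-05). For *Mt2* the means were 14.8 ± 2.35 and 2.49 ± 0.796 FPKM, a 5.95-fold difference (2.19 ± 0.28 SE, limma adjusted p 0.000189). Both genes were also higher than ND under HYA (1.02 and 1.56, limma adjusted p 0.00517 and 0.00369) and under LA (1.39 and 1.93, limma adjusted p 0.000397 and 0.000496). The pseudocount of 1 makes these log2 values smaller than the ratio of the means.

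Between HYA-treated and control mice, *Mt1* differed by -0.76 ± 0.19 (SE), from 15.1 ± 2.03 to 8.46 ± 0.767 FPKM, the lowest p among the 10 genes in this comparison (unadjusted 0.00238, limma adjusted 0.0629). The adjusted p ranged from 0.0253 to 0.245 over the alternatives with limma or voom, and it was under the threshold in 6 of 20. These were voom on fragments (0.0253), a filter of 5 FPKM (0.0439), TPM (0.0484), the replicate number as a block, and the fits without ND mouse 2 (0.0352) or ND mouse 3 (0.0386). *Mt2* differed by -0.64 (95% interval -1.25 to -0.02, limma adjusted p 0.251), and by -0.26 without HYA mouse 2 and -0.90 without HYA mouse 1. Between HYA and LA the differences were -0.38 for *Mt1* (95% interval -0.80 to 0.05) and -0.37 for *Mt2* (-0.99 to 0.24), with limma adjusted p of 0.351 and 0.535. The *Mt2* difference between HYA and LA came to 0.0062 without HYA mouse 2.

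The ratio of *Mt2* to *Mt1* was 0.690 ± 0.209 under ND, 0.987 ± 0.163 in control mice, 1.14 ± 0.442 under HYA and 1.08 ± 0.0478 under LA (SD, n = 3 each, no test). The gene length behind the *Mt1* values is 1246 bases, the whole span of the gene with its introns, and that of *Mt2* is 588 bases, so levels of these neighbours per length depend on the annotation. The window of 250 bases before the RefSeq start of *Mt2* (GRCm38.p6, chr8:94172368-94172617, plus strand) is shown for its metal response elements, TGCACNC or TGCGCNC on either strand, in capitals.
*Mt2*: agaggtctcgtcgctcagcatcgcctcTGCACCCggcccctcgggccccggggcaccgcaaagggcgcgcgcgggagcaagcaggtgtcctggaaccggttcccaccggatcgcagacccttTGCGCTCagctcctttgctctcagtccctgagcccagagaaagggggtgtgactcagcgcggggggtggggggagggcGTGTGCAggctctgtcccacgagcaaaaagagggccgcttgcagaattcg
It held 3 matches, at 223 to 217, 128 to 122 and 50 to 44 bases before the RefSeq start. Annotated *Mt2* transcripts start further downstream, at positions 94172664 and 94172860, and the bases from the end of the window to those starts were not searched. At least 3 matches occurred in 1.26% and at least 1 in 21.4% of the 32851 windows. The *Mt1* window held 1 match, but other annotated *Mt1* transcripts start further downstream, at positions 94179211 and 94179241, and the bases before those starts were not searched. The other genes of the metallothionein family, *Mt3* and *Mt4*, were listed at 0.

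Counted over the 10 genes, control against ND had 5 called by limma at an adjusted p under 0.05, 4 higher (*Fth1*, *Ftl1*, *Mt1*, *Mt2*) and 1 lower (*Slc40a1*), beside 35.3% of all 11083 tested genes, 16.2% higher and 19.1% lower. With TPM 5 were again called, all 5 higher, with *Trf* in and *Slc40a1* out, beside 38.2% of all genes tested there and a median over all genes of 0.18. With a log2 difference beyond 1 as well, *Mt1* and *Mt2* remained, 2 of 10 beside 3.88% of all genes. The median log2 difference was 0.08 over the 10 genes and -0.04 over all tested genes. Under HYA against ND 5 were called beside 16.6%, and under LA against ND 6 were called beside 31.1%. The comparisons with ND share the ND-fed mice, and those with control share the control mice.

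In HYA against control, 0 of the 10 genes were called by limma, beside 2.8% of all tested genes. At an unadjusted p under 0.05 there were 7 of 10 (*Bmp6*, *Fth1*, *Ftl1*, *Mt1*, *Mt2*, *Slc40a1* and *Trf*), beside 18.5% of all genes, and voom called 1 of the 10, *Mt1*. Ranges of the groups did not overlap for 6 of the 10, beside 21.6%, with *Bmp6* and *Slc40a1* higher under HYA and *Fth1*, *Ftl1*, *Mt1* and *Trf* lower. The median log2 difference was -0.13 over the 10 genes and 0.02 over all tested genes.

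LA against control had 0 of the 10 genes called by limma beside 0% of all genes, with 0 by voom and 1 (*Ftl1*) at an unadjusted p under 0.05, where all genes had 2.65%. *Ftl1* differed by -0.16 (95% interval -0.31 to -0.02) and *Mt1* by -0.39 (-0.82 to 0.04). Ranges did not overlap for 4 of the 10, beside 7.55%, namely *Tfrc* with LA higher and *Fth1*, *Ftl1* and *Mt1* with LA lower. Every limma adjusted p was 0.999.

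HYA against LA, the comparison of the related fatty acids, had 0 of the 10 genes called by limma, beside 0.487% of all genes. Voom called 0, and 2 (*Bmp6* and *Hamp*) had an unadjusted p under 0.05, beside 17.2% of all genes. Ranges did not overlap for 5 of the 10, beside 25.2%, with HYA higher in *Bmp6* and *Slc40a1* and lower in *Fth1*, *Mt1* and *Trf*. For *Slc40a1* the ranges all but touched, at 16.364 FPKM in HYA mouse 2 and 16.361 FPKM in LA mouse 2. The 95% intervals were -0.16 to 0.06 for *Fth1*, -0.21 to 0.08 for *Ftl1*, -0.22 to 0.04 for *Trf* and -0.0014 to 0.32 for *Slc40a1*, and they were wider for *Tfrc* (-0.76 to 0.02) and *Hamp2* (-0.49 to 1.07).

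**Figure D3:**
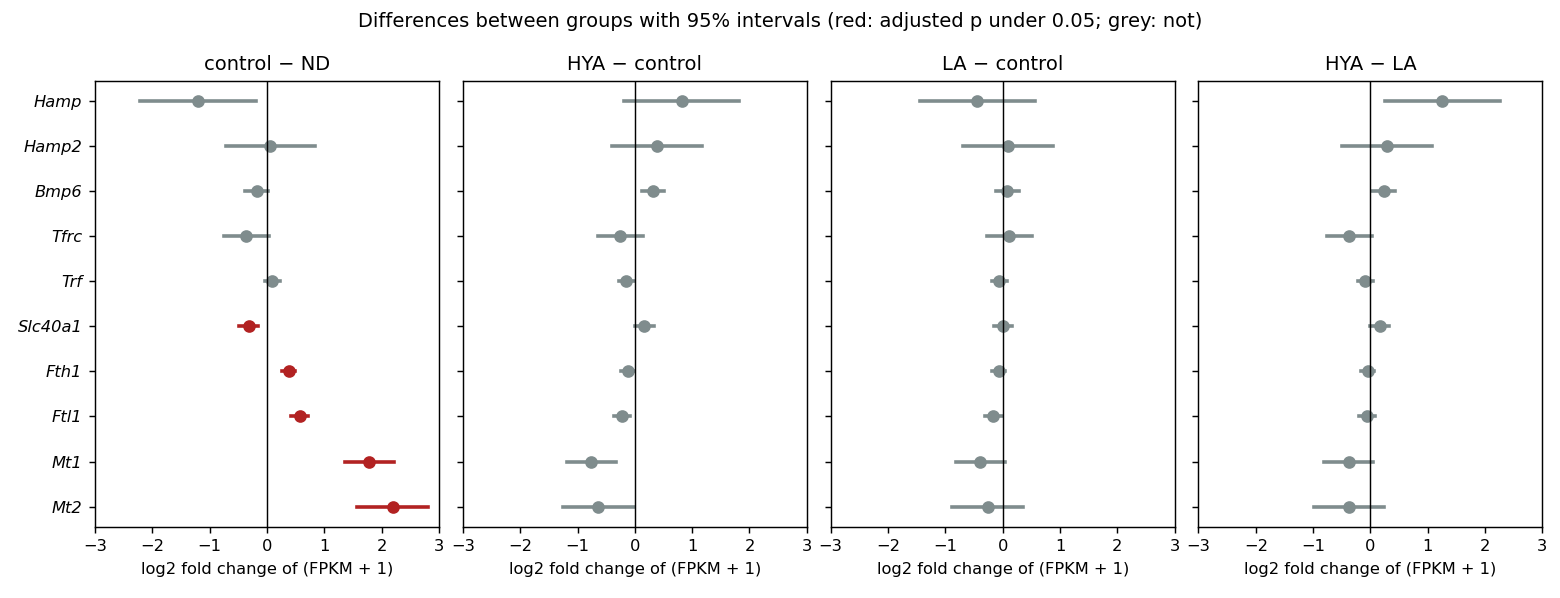
The 4 panels plot the log2 difference of FPKM + 1 with its 95% interval (x axis) for each gene (y axis), in red where the limma adjusted p is under 0.05. The only red intervals are in control against ND, *Slc40a1* at -0.32 and *Fth1*, *Ftl1*, *Mt1* and *Mt2* from 0.38 to 2.19.

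The 10 genes differed widely in how much mice of 1 group varied. The residual SD on the log2 scale was 0.65 for *Hamp*, above that of 98.7% of tested genes, 0.50 for *Hamp2* (97.5%) and 0.39 for *Mt2* (96.2%). *Mt1* at 0.27 (91.1%) and *Tfrc* at 0.25 (89.3%) were also on the high side, beside a median of 0.11 over all tested genes. *Bmp6* (0.10) and *Slc40a1* (0.09) lay near that median. *Fth1* at 0.04 was above 0.731% of genes, *Trf* at 0.06 above 11.5% and *Ftl1* at 0.07 above 15.8%. Between control and ND, the log2 difference of 0.38 in *Fth1* passed the test and that of -1.20 in *Hamp* did not.

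**Figure D4:**
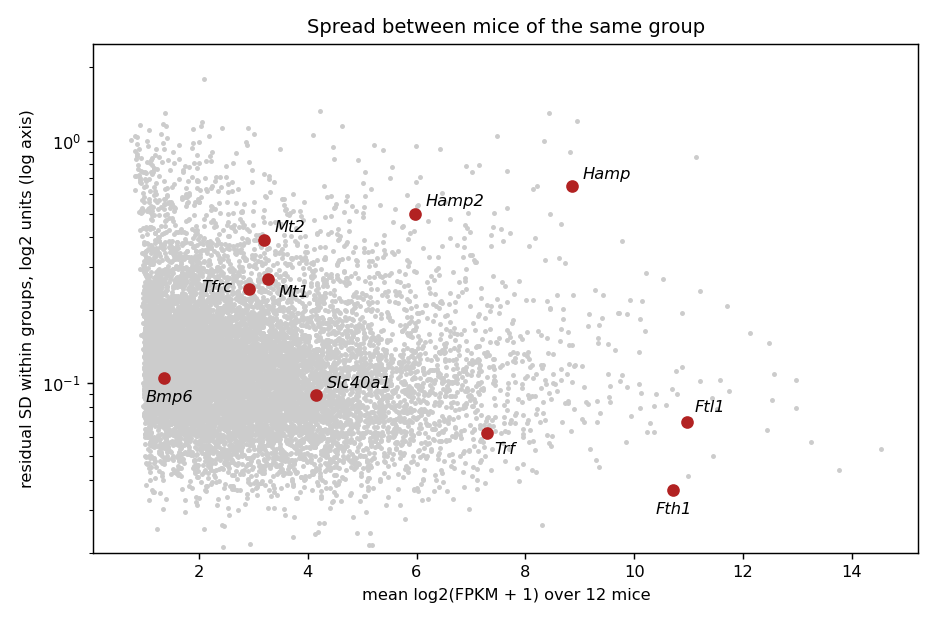
Each grey point is 1 of 11083 tested genes and each red point 1 of the 10 genes, with the mean log2(FPKM + 1) over 12 mice on the x axis and the residual SD within groups in log2 units on a log y axis. *Hamp* (0.65) sits at the upper edge of genes of its level, and *Fth1* (0.04) at the lower edge.

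Across mice, *Fth1* and *Ftl1* had a Pearson r of 0.95 over 12 mice and 0.89 over the 9 on a high-fat diet, and *Mt1* and *Mt2* had 0.94 and 0.74. *Hamp* and *Hamp2* had 0.36 and 0.59. Over the 9 mice on a high-fat diet *Fth1* had 0.95 with *Trf* and -0.92 with *Bmp6*, whereas over all 12 the values were 0.32 and -0.35. These are descriptions, since the mice share diets and the differences between groups enter each value. The tested genes with the highest r to *Mt1* were *Grn* (0.977) and *Igsf6* (0.974), and to *Mt2* *Psap* (0.973) and *Lcn2* (0.970), over 12 mice. For *Fth1* they were *Nadk* (0.972) and *Cyp4a31* (0.971), and for *Ftl1* *Jam2* (0.968) and *Lacc1* (0.965). *Hamp* had *Ndufb9* (0.914) and *Atp5h* (0.897), *Hamp2* had *Slc25a22* (0.858) and *Mtm1* (0.825), and *Bmp6* had *Ncoa2* (0.891) and *Dcaf6* (0.880). *Slc40a1* had *Resf1* (0.938) and *Onecut2* (0.924), *Tfrc* had *Usp46* (0.929) and *Gimap9* (0.910), and *Trf* had *Hsp90aa1* (0.849) and *Tmem206* (0.848). Over the 9 mice on a high-fat diet *Fth1* had 0.754 with *Nadk* and 0.734 with *Cyp4a31*. *Ftl1* had 0.806 with *Jam2* and 0.822 with *Lacc1* over these 9. The r of all the listed pairs ran from 0.734 to 0.948 there.

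Of the genes that set hepcidin, 23 of 28 listed regulators were tested, and in control against ND 5 were higher and 4 lower by limma, with a median log2 difference of -0.04 equal to that of all genes. Over all tested genes 16.2% were higher and 19.1% lower. With TPM the split was 9 higher and 2 lower of 24, and with median-ratio size factors 5 higher and 2 lower of 23. *Tfr2*, the transferrin receptor that senses iron-loaded transferrin, was lower (113 to 76.5 FPKM, -0.55, limma adjusted p 0.000451). *Tmprss6*, the protease that cleaves hemojuvelin and so restrains hepcidin, was lower as well (189 to 155 FPKM, -0.29, limma adjusted p 0.00541), although not with TPM (-0.049, limma adjusted p 0.543, range 0.00453 to 0.543 over the 20 settings). *Tgfb1*, a cytokine of the superfamily that includes the BMPs, was higher (2.56 to 4.37 FPKM, 0.60, limma adjusted p 0.00162). Of 6 tested BMP-SMAD target genes 1 was higher, *Id1* (3.33 to 7.52 FPKM, 0.98, limma adjusted p 0.0102), an inhibitor of helix-loop-helix factors, and with TPM 3 of 8 were higher. In HYA against control 0 regulators and 0 BMP-SMAD targets were called.

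Among 11 targets of STAT3 and the acute phase, 6 were higher in control mice and 3, the fibrinogen genes *Fga*, *Fgb* and *Fgg*, were lower. The lowest p belonged to *Lcn2*, which encodes a siderophore-binding protein (1.02 to 25.6 FPKM, 3.67, limma adjusted p 1.95e-05), and to the acute-phase genes *Orm2* (9.76 to 57.8 FPKM, 2.44, limma adjusted p 2.95e-05) and *Saa2* (6.10 to 37.8 FPKM, 2.47, limma adjusted p 8.76e-05). The median log2 difference of the list was 0.48. Over all tested genes 16.2% were higher and 19.1% lower in control against ND. In HYA against control 0 were called, and 1, with HYA lower, with TPM.

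Among 18 tested genes of cellular iron uptake, traffic and sensing, 2 were higher and 5 lower in control mice against ND, with a median of -0.12. Over all tested genes 16.2% were higher and 19.1% lower. With TPM 7 were higher and 3 lower of 19, and with median-ratio size factors 3 were higher and 3 lower of 18. The lower genes included *Lrp1*, a receptor that takes up heme bound to hemopexin (84.7 to 56.1 FPKM, -0.59, limma adjusted p 5.65e-05), and *Aco1*, which encodes iron regulatory protein 1 (75.5 to 54.6 FPKM, -0.46, limma adjusted p 0.000549). *Steap3*, a ferrireductase of endosomes, went from 5.90 to 3.80 FPKM (-0.53, limma adjusted p 0.00196). *Lrp1* was the only gene of this list called in HYA against control, where it was higher (69.3 FPKM, 0.30, limma adjusted p 0.0355). That call was lost in 10 of 20 settings (limma or voom adjusted p 0.0249 to 0.156), TPM among them (0.18, limma adjusted p 0.0812).

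Of 20 heme genes, 4 were higher and 9 lower in control mice against ND, with a median of -0.14, beside 16.2% and 19.1% of all tested genes. With TPM 7 were higher and 1 lower, whereas with median-ratio size factors 4 were higher and 8 lower. *Hp*, the plasma scavenger of hemoglobin, was higher (1207 to 2134 FPKM, 0.82, limma adjusted p 8.51e-05). *Cd163*, the macrophage receptor for haptoglobin with hemoglobin, was lower (4.64 to 1.97 FPKM, -0.95, limma adjusted p 0.00507), and so was *Cpox* of heme synthesis (26.7 to 21.4 FPKM, -0.31, limma adjusted p 0.00113), although not with TPM (-0.081, limma adjusted p 0.251, range 0.000807 to 0.251). In HYA against control *Cpox* was higher (25.3 FPKM, 0.23, limma adjusted p 0.0479) and *Slc48a1*, a heme transporter, lower (22.4 to 18.3 FPKM, -0.28, limma adjusted p 0.0412). The *Cpox* call was lost in 15 of 20 settings (limma or voom adjusted p 0.0314 to 0.242) and that of *Slc48a1* in 10 of 20 (0.0233 to 0.164).

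Of 23 tested zinc and copper genes, 5 were higher and 5 lower in control mice against ND, with a median of -0.03. Over all tested genes 16.2% were higher and 19.1% lower. With TPM 10 were higher and 2 lower of 26, and with median-ratio size factors 6 were higher and 5 lower of 23. *Slc39a5*, a zinc importer, went from 0.358 to 4.00 FPKM (1.87, limma adjusted p 8.69e-06). The copper chaperone *Atox1* was higher (134 to 182 FPKM, 0.43, limma adjusted p 0.000336), and *Ccs*, the copper chaperone of superoxide dismutase, was lower (136 to 93.8 FPKM, -0.54, limma adjusted p 0.000531). *Slc39a4*, another zinc importer, was lower under HYA than under the high-fat diet alone (13.0 to 7.88 FPKM, -0.66, limma adjusted p 0.0190). Its call was lost in 5 of 20 settings (limma or voom adjusted p 0.00864 to 0.139), namely the fit of the 2 groups alone and without control mouse 1 or 3 or HYA mouse 2 or 3. The fit of the 2 groups alone and that without HYA mouse 2 called 0% of all tested genes.

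Of 11 glucocorticoid-induced genes, 3 were higher and 1 lower in control mice against ND, with a median of 0.06, beside 16.2% and 19.1% of all tested genes. *Fkbp5* (1.60 to 2.61 FPKM, 0.48, limma adjusted p 0.00489) and *Cdkn1a* (0.983 to 7.94 FPKM, 1.97, limma adjusted p 0.00677) were higher, the latter with 4.49, 4.24 and 15.1 FPKM in the control mice and a mean of 4.37 FPKM without control mouse 3, and *Klf9* was lower (32.6 to 19.4 FPKM, -0.74, limma adjusted p 0.00170). *Klf9* was higher under HYA than in control mice (30.6 FPKM, 0.65, limma adjusted p 0.0357), a call lost in 8 of 20 settings (limma or voom adjusted p 0.0238 to 0.156). For HYA and control mice, the calls of *Lrp1*, *Cpox*, *Slc48a1*, *Slc39a4* and *Klf9* were all lost without control mouse 1 and without HYA mouse 2. No gene of these 7 lists was called in LA against control or in HYA against LA, and with TPM 1 heme gene and 1 zinc or copper gene were called in HYA against LA, both lower under HYA.

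**Figure D5:**
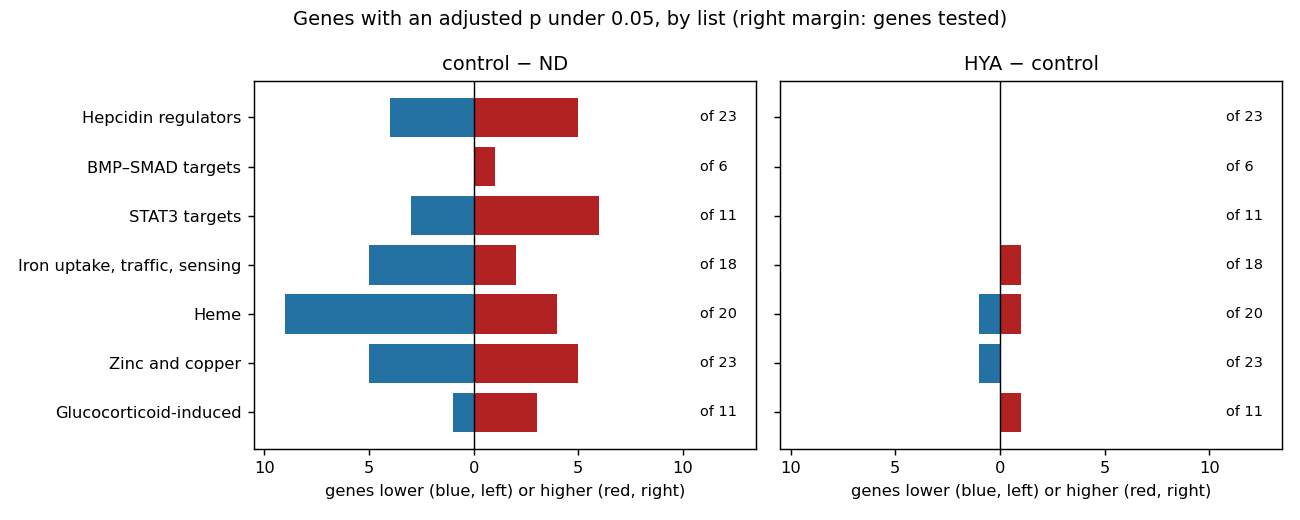
Bars to the right give the number of genes of each list that were higher and bars to the left the number lower at a limma adjusted p under 0.05, in control against ND and in HYA against control, with the number tested at the right margin. The heme list has 4 higher and 9 lower of 20 in control against ND (7 and 1 with TPM, 4 and 8 with median-ratio size factors). In HYA against control the 7 lists together have 3 higher and 2 lower.

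Markers of the cells of the liver moved with the diets as well. The hepatocyte sums were higher under ND and HYA than under LA and in control mice without overlap. The totals of the FPKM columns separated in the same way. They were 407652 to 429286 under ND, 380803 to 393109 under HYA, 352290 to 361523 under LA and 342146 to 368132 in control mice. The part of these totals in the marker sums was not tested. The means of *Hamp*, *Slc40a1* and *Bmp6* had the same order of these pairs of groups, although the *Hamp* ranges of HYA and control overlapped. The single markers did not all follow the sums. In HYA against ND, limma called *Alb*, *Serpina1a* and *Hnf4a* lower and only *Fabp1* higher. *Fabp1* was at 6748 to 7581 FPKM under HYA and at 4514 to 5024 FPKM under ND. *Alb* (29221 to 20497 FPKM, a call lost with no filter on low values at limma adjusted p 0.450), *Serpina1a* (1065 to 487 FPKM) and *Hnf4a* (152 to 104 FPKM) were among 5 of the 8 that were lower in control mice than in ND-fed mice, while 1, *Fabp1*, was higher. Of 12 macrophage markers 6 were higher, among them *Cd68* (7.81 to 16.6 FPKM), *Fcgr1* and *C1qb*, and 2, *Marco* and *Timd4*, were lower, so the list did not move in 1 direction. Of 10 endothelial markers 5 were higher (*Lyve1*, *Stab1*, *Pecam1*, *Eng*, *Oit3*). The 8 stellate markers summed to 39.2 to 51.3 FPKM in ND-fed and 76.1 to 95.3 FPKM in control mice, with 5 higher, among them *Col1a1*, *Dcn* and *Rgs5*. The erythroid markers summed to 280 to 384 FPKM in ND-fed and 337 to 556 FPKM in control mice, and of 5 tested *Alas2* was lower (66.2 to 30.5 FPKM). In HYA against control, *Col1a1* was the 1 marker called, and it was lower, a call lost in 7 of 20 settings (limma or voom adjusted p 0.00851 to 0.139). In control against ND limma called 35.3% of all tested genes, and 38.2% with TPM. With TPM 9 of 10 endothelial and 8 of 8 stellate markers were higher there, and with median-ratio size factors 6 of 10 and 6 of 8. Of the 5 erythroid markers 3 were higher and 1 lower with TPM (1 and 1 with median-ratio size factors). The part of these cell types in the levels of the 10 genes was not tested.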

How the data were processed

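Members and gene lists were chosen with earlier results of these data known. FPKM values, 1 column per mouse, were deposited by the authors, made from paired-end reads of Nextera XT libraries. The submitters' processing notes name fastp, HISAT2 2.0.5, featureCounts 1.5.0-p3 and GRCm38, and strand handling is not given in the sources used here. The methods name TPM, but columns summed to 342146 to 429286. FPKM multiplied by gene length gave whole fragments for 100% of values (tolerance 0.05).

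log2(FPKM + 1) of 11083 genes averaging 1 FPKM or more was fitted in 1 model over the 12 mice with limma 3.58.1 (R 4.3.3, empirical Bayes with trend, two-sided), with Benjamini-Hochberg adjustment over all tested genes of a comparison, at 0.05. Scripts were tested on simulated data. Replicates are mice by their labels, and 3 per group limit the precision. Coordinates are GRCm38, since 98.3% of 54409 identifiers shared with GENCODE M21 had the same positions. RefSeq windows matched 8 of the 10 genes (not *Trf* and *Slc40a1*). Alternatives were a pseudocount of 0.1, no filter, a filter of 5 FPKM, TPM, median-ratio factors, voom, a replicate block, fits of 2 groups, and each mouse left out.

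The genes named are the 10 genes, their ferritin copies above 0, the up to 3 genes per list with the lowest p among those called in control against ND and in HYA against control, and the 2 genes most correlated with each of the 10, leaving out clone names, pseudogene names and the 10 genes themselves. Other genes, named for their list only (such as *Fga*, *Eng* and *Oit3*), were chosen after their values were seen. Replicate numbers were not used as pairs in the main fit. Of 18 pairs of same-numbered mice, 3 had a correlation of deviations over 0.1, and the values ran from -0.40 to 0.29. These values cannot show whether same-numbered mice shared a batch.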

Additional observations from a re-analysis of the deposited data

How the results depend on the processing

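Of 1194 differences of the 10 genes recomputed under alternatives, 1141 kept their call and direction, 18 lost a call, 18 gained one and 17 changed sign, 0 of them called. Control against ND had 5 or 6 genes called in every setting, beside 16.1% to 43.5% of all tested genes. LA against control had 0 in every setting, beside 0% to 0.00384% of all tested genes. HYA against LA also had 0 in every setting, beside 0% to 2.86%. With so few genes called at all, these 0 counts do not set the 10 genes apart from other genes. LA against ND had 5 to 7, beside 31.1% of all tested genes in the main fit.

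In HYA against control, where the report gives 0, the count was 1 with a filter of 5 FPKM (beside 6.16% of all genes tested there), 1 with voom (3.79%), 4 with TPM (3.65%) and 0 to 1 with 1 mouse left out (0% to 5.89%). In HYA against ND, where it gives 5, the count was 2 with no filter on low values, beside 5.81% of 26045 genes, and *Fth1*, *Ftl1* and *Tfrc* were lost (limma adjusted p 0.104, 0.0754 and 0.0902). With the replicate block, 1 gene (*Mt1*, limma adjusted p 0.0317) was called in HYA against control (beside 4.05% of all genes) and 4 in HYA against ND (16.3%), where *Tfrc* was lost. By deviations from the group means, 2 of 12 mice correlated best with a mouse of their own number, and the block changed no other call.

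Sign changes with TPM were *Slc40a1* in LA against control (-0.0018), *Trf* in HYA against ND (0.055) and *Bmp6* in LA against ND (0.059). With 1 mouse left out, *Hamp2* ran from -0.37 to 0.30 in control against ND, -0.17 to 0.53 in LA against control and -0.11 to 0.39 in LA against ND. *Hamp* in LA against control ran from -0.90 to 0.069, *Slc40a1* in LA against control from -0.036 to 0.036, *Mt2* in HYA against LA from -0.64 to 0.0062, *Trf* in LA against ND from -0.014 to 0.080 and *Bmp6* in LA against ND from -0.16 to 0.0033. The cause was not tested. With 3 mice a group, a permutation test of 1 gene cannot go below an exact p of 0.1, and counting error at 20 to 203 fragments limits *Mt2* most.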
